A study of Rattus norvegicus with 35 samples.

Results

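The proteasome subunit genes of neonatal rat ventricular myocytes (NRVMs) were followed through cyclic mechanical stretch. They were the genes whose symbol is Psma, Psmb, Psmc, Psmd or Psme with a digit, read by a probe set that the array annotation gives to that symbol alone, without the interferon-inducible catalytic subunits Psmb8, Psmb9 and Psmb10. There were 36 such genes among 14217 genes read in this way, on 50 probe sets, and the brightest probe set stood for each gene. This rule used symbols, annotation and brightness and no measured change, but it was set with earlier results of these data known. Psmb6 and Psme3 were read only by probe sets with several symbols and are not described, and no probe set gave Psma8 or Psmb11 alone.

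The 26S proteasome is the large protease that degrades proteins tagged with ubiquitin. Its barrel-shaped 20S core has outer rings of alpha subunits, which gate the entrance, around inner rings of beta subunits, of which Psmb5 carries the chymotrypsin-like and Psmb7 the trypsin-like activity. The 19S cap on the barrel consists of a base with a ring of ATPases (Psmc genes) that unfold the substrate, and of a lid that removes the ubiquitin. The alternative caps PA28 (Psme1 and Psme2) and PA200 (Psme4) open the core without ATP. In heart muscle the proteasome removes damaged proteins and turns over sarcomeric proteins, and many of its subunit genes can be raised together through the transcription factor Nfe2l1.

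All cells were NRVMs from Sprague-Dawley rats aged 2 to 4 days, a myocyte-enriched fraction obtained by pre-plating, so that other heart cells remain, grown on flexible collagen-coated plates. Unstretched NRVMs were compared with NRVMs stretched for 1, 4, 12, 24 or 48 hours by cyclic suction under the plate, with 5 biological replicates in each of the 7 groups and 1 Affymetrix rat expression array per replicate. The 35 arrays formed 2 sets, each with its own unstretched control: set I (20 arrays) held 1, 4 and 12 hours, and set II (15 arrays) held 24 and 48 hours. The letter a or b at the end of each control label was read as naming its set. Whether the sets were normalized together or separately is not stated. Each time was therefore tested against the control of its set, and times of different sets are only given side by side. A level is the log2 of the normalized intensity of a probe set and a change is a difference of such levels. A change was called at an adjusted p under 0.05 (limma, Benjamini-Hochberg over 31042 probe sets).

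Within groups, arrays correlated at 0.9898 to 0.9983. The 14 cardiomyocyte markers measured, such as troponin T and titin, had summed intensities between 133422 and 160792 on all arrays, and the 12 fibroblast markers had summed intensities of 72112.7 to 87177.8. Endothelial, smooth muscle and macrophage markers were measured as well and none was at 0, since array intensities do not reach it. The proteasome genes were well expressed, with mean log2 levels from 9.09 to 12.72, while the median probe set lay at 6.52.

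Most proteasome genes rose during stretch, each by a small amount, while the PA28 genes fell. After 1 hour, 3 of the 36 genes were called higher and 1 lower, or 8.33% and 2.78% of them, when 6.32% of all probe sets were called higher and 7.52% lower. After 4 hours, 19 were higher and 2 lower (52.8% and 5.56%), against 14.2% and 15.2% of all probe sets. After 12 hours, 27 were higher and 1 lower (75% and 2.78%), against 16.3% and 16.9%. In set II, 15 were higher and 2 lower after 24 hours (41.7% and 5.56%), against 9.14% and 9.13%, and 24 were higher and 2 lower after 48 hours (66.7% and 5.56%), against 16.9% and 16.0%. In these bulk cultures fewer cells of a type and less RNA per cell cannot be told apart.

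Bright probe sets were called more often than all probe sets. Among the 6143 probe sets with a mean log2 level of at least 9, 12.8%, 26.9%, 29.4%, 18.6% and 29.7% were higher after 1, 4, 12, 24 and 48 hours. The share of proteasome genes called higher was above this share at 4, 12, 24 and 48 hours and below it at 1 hour. The median change of the 36 genes was 0.05, 0.13, 0.22, 0.12 and 0.17 on the log2 scale after 1, 4, 12, 24 and 48 hours, while the median of all probe sets stayed between −0.00 and 0.03. Each array was also centred on its median. The share of higher among all called probe sets was then 59.3%, 55.8%, 58.3%, 60.9% and 64.9% at the successive times. Without centring it was 45.7%, 48.4%, 49.0%, 50.0% and 51.3%. With centring, 5, 21, 28, 17 and 26 proteasome genes were higher and 0, 1, 1, 1 and 2 lower.

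**Figure D1:**
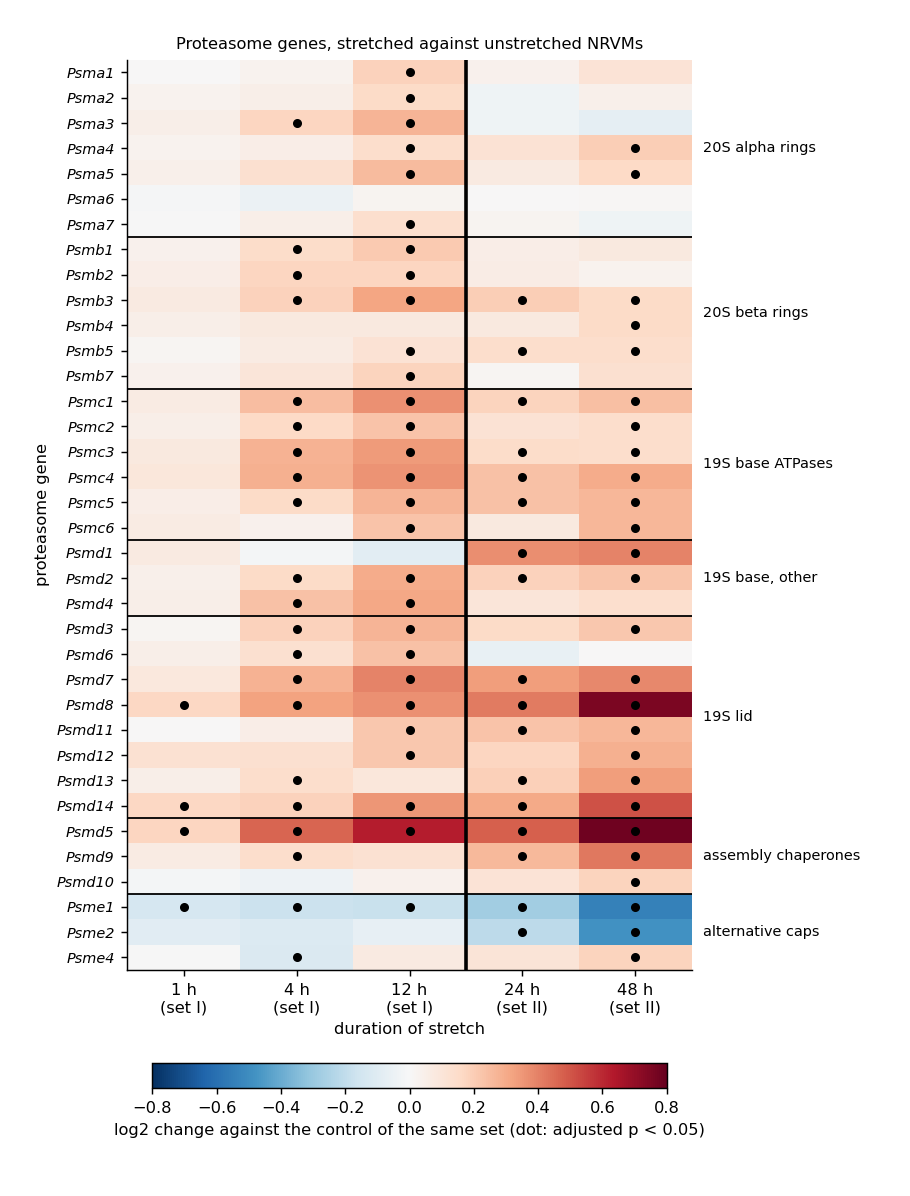
Log2 change of each of the 36 proteasome genes (rows, grouped by their place in the particle) after 1, 4 and 12 hours (set I) and 24 and 48 hours (set II) of stretch, against the control of the same set. Red is higher and blue lower in stretched NRVMs, a dot marks an adjusted p under 0.05, and the 27 dotted red cells at 12 hours contrast with the blue row of Psme1.

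The changes were small in size. Of the genes called higher, 0, 5, 13, 5 and 12 were at least 1.2-fold higher after 1, 4, 12, 24 and 48 hours, and no more than 2 reached 1.5-fold at any time: Psmd5 at 12 hours, and Psmd5 and Psmd8 at 48 hours. The 5 stretched and 5 unstretched arrays did not overlap for 26 of the 27 genes called higher at 12 hours and for 19 of the 24 at 48 hours. These genes had already been called, and the same count was not made for all called probe sets. The counts therefore give no comparison with other genes. Over all times, 33 of the 36 genes were called higher at least once and 3 lower at least once (Psme1, Psme2 and Psme4, the last in both directions). The share of all probe sets called at least once was not counted, and the shares at single times cannot stand in for it. Psma6, a subunit of the alpha ring, was the 1 gene never called, with changes from −0.05 to 0.02.

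The direct comparison of times within set I gave the time course. Between 1 and 4 hours, 10 proteasome genes were higher and 0 lower, against 7.15% and 6.17% of all probe sets. Between 4 and 12 hours, 9 were higher and 0 lower, against 4.25% and 5.13%. From 1 to 12 hours, 20 were higher and 1 lower, against 11.3% and 10.0%, the lower gene being Psmd1. In set II, 1 gene was higher (Psmd5) and 2 were lower (Psme1 and Psme2) at 48 hours than at 24 hours, against 2.08% and 4.03% of all probe sets.

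Short stretches of promoter sequence are given for the letters that 2 families of transcription factors are known to bind. Whether these letters go with the direction of a change was not tested. Nfe2l1 and its relative Nrf2, with small Maf partners, bind antioxidant response elements (searched as TGACNNNGC), and interferon-activated factors bind interferon-stimulated response elements (searched as GAAA, any 2 bases and GAAA), both on either strand, in the 250 bases before the RefSeq start in build GRCr8. An entry was found for 32 of the 36 genes. The first motif was present in 6 of them (18.8%) against 10.1% of 33469 promoters, and the second in 4 (12.5%) against 3.41%. The NF-Y motif CCAAT was in 16 (50%) against 34%. A match describes the letters only. The antioxidant matches of Psma3 and Psmd9 and the interferon matches of Psma4 and Psmb3 are not printed. Each line is written 5′ to 3′ on the strand of the gene, with the fixed letters of the motif in capitals, and the match in Psmb2 shares 1 base with a CCAAT.
Psmb5 (chr15:32047420-32047449, minus strand): cgtgaagctgTGACgtcGCggcgttgcccg
Psmb2 (chr5:144254980-144255009, plus strand): cccgcgccaaTGACcggGCggtcgcatatc
Psmd1 (chr9:94157796-94157825, plus strand): accagatctaTGACctcGCgagaattataa
Psme4 (chr14:108706578-108706607, plus strand, motif on the other strand): ggagaaagccGCtggGTCAcctcctcgcct
Psmd7 (chr19:52411363-52411392, minus strand, interferon motif on the other strand): aaggcagcccTTTCccTTTCtcaagatggc
Psme2 (chr15:33052785-33052814, minus strand, interferon motif): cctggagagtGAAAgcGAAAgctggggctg
The window of Psme2 lies inside the annotated span of the gene, whereas the other windows printed end at the gene's first base. Among the other windows counted, those of Psma3, Psma5, Psma6, Psmb1, Psmc4, Psmd3, Psmd4, Psmd5, Psmd9, Psmd11 and Psme1 do not end there either. Those of Psma6 and Psmd5, for example, lie inside the gene. The motif counts and the changes by motif are therefore not all taken at the first base of the gene. At 12 hours the 6 genes with the antioxidant motif changed by −0.08 to 0.27 (median 0.12, 3 called higher), and all 32 genes with an entry by −0.18 to 0.63 (median 0.21, 23 called higher). At 48 hours the median was 0.16 for the former (4 called higher) and 0.17 for the latter (22 called higher and 2 lower). The 4 genes with the interferon motif, Psma4, Psmb3, Psmd7 and Psme2, changed by −0.07 to 0.40 at 12 hours (median 0.23, 3 called higher) and by −0.49 to 0.39 at 48 hours (median 0.17), when 3 were called higher and Psme2 lower. Of the 16 genes with CCAAT, 13 were called higher at 12 hours and 9 at 48 hours.

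The assembly chaperone Psmd5, which helps the base ring form and is not part of the finished particle, had the largest rise of all proteasome genes at 4, 12, 24 and 48 hours when each was read by its brightest probe set. A less bright probe set of the lid gene Psmd11 rose more at 4 and 12 hours (0.48 and 0.74, against 0.46 and 0.63 for Psmd5). The log2 level of Psmd5 in unstretched set I NRVMs was 10.23, 10.14, 10.12, 10.12 and 10.18. It was 10.35, 10.27, 10.23, 10.30 and 10.48 after 1 hour, 10.68, 10.63, 10.56, 10.65 and 10.58 after 4 hours, and 10.85, 10.79, 10.74, 10.84 and 10.70 after 12 hours. From 4 hours on every stretched array lay above every unstretched one, whereas the 1-hour group overlapped with the control. In set II the levels were 10.15, 10.19, 10.20, 10.22 and 10.27 without stretch, 10.68, 10.74, 10.76, 10.45 and 10.79 after 24 hours, and 10.97, 11.07, 11.04, 10.86 and 10.98 after 48 hours. All stretched arrays were again above the controls, and the 48-hour arrays all lay above the 24-hour arrays.

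The change of Psmd5 was 0.17 ± 0.05 (SE) at 1 hour, 0.46 ± 0.05 at 4 hours and 0.63 ± 0.05 at 12 hours, the last being 1.54-fold (adjusted p = 3.52e-09, limma). It was 0.48 ± 0.06 at 24 hours and 0.78 ± 0.06 at 48 hours, or 1.71-fold (adjusted p = 1.27e-07). Each step within a set was called: 4 hours over 1 hour (0.29, adjusted p = 0.00027), 12 hours over 4 hours (0.16, adjusted p = 0.0354) and 48 hours over 24 hours (0.30, adjusted p = 0.00861). The rise at 1 hour was not called without replicate 5 of that time. Of the other chaperones, Psmd9 was called at 4 hours (0.14), 24 hours (0.26) and 48 hours (0.42 ± 0.06, adjusted p = 4.63e-05), and Psmd10, also known as gankyrin, at 48 hours alone (0.18 ± 0.06, adjusted p = 0.0238).

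**Figure D2:**
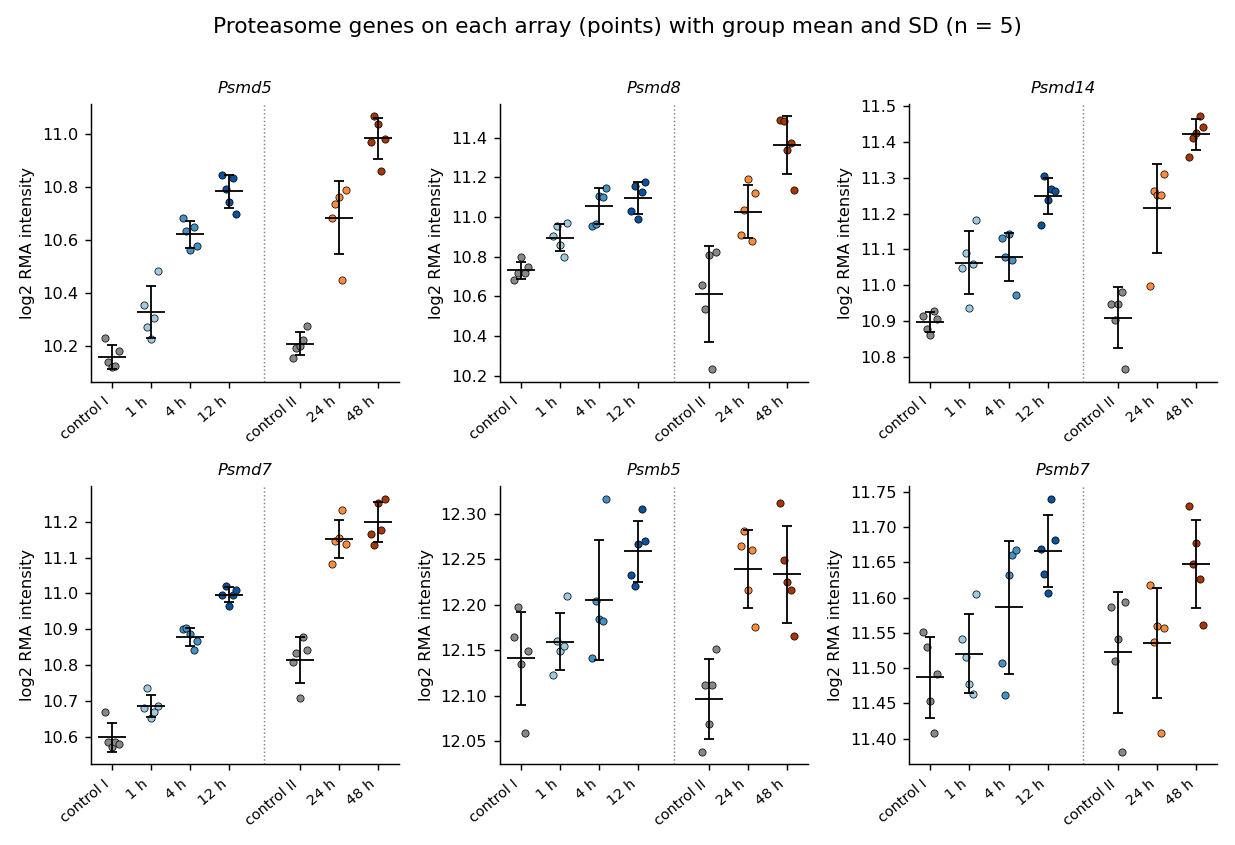
Log2 RMA intensity of Psmd5, Psmd8, Psmd14, Psmd7, Psmb5 and Psmb7 on each array (points), with the mean and SD of each group (n = 5) and a dotted line between set I and set II, and with a different vertical axis in each panel. Psmd5 lies at 10.12 to 10.23 in the set I control and at 10.70 to 10.85 after 12 hours, while the groups of Psmb5 and Psmb7 lie closer together.

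The other proteasome genes were ranked by their brightest probe sets. The largest rise at 12 hours was that of Psmd7, a lid gene, followed by the ATPase gene Psmc1. At 48 hours it was that of Psmd8, followed by Psmd14. Less bright probe sets of Psmd11 (0.74) and Psmd14 (0.47) rose more at 12 hours than the brightest one of Psmd7 (0.40). Psmd8, a subunit of the lid, had log2 levels of 10.68, 10.72, 10.80, 10.72 and 10.75 in the set I control and of 10.90, 10.95, 10.86, 10.80 and 10.97 after 1 hour. The levels were 10.96, 10.96, 11.11, 11.10 and 11.15 after 4 hours and 11.03, 11.16, 10.99, 11.13 and 11.18 after 12 hours. None of the stretched groups overlapped with the control. In set II the control was spread from 10.23 to 10.83, with 10.65, 10.53, 10.81, 10.23 and 10.83, whereas the 24-hour arrays had 10.91, 11.04, 11.19, 10.88 and 11.12 and the 48-hour arrays 11.49, 11.48, 11.34, 11.37 and 11.14. Here too the stretched arrays were above all controls, despite the wide control.

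Psmd8 changed by 0.16 ± 0.05 at 1 hour (adjusted p = 0.0315), 0.32 at 4 hours, 0.36 at 12 hours, 0.42 ± 0.11 at 24 hours and 0.75 ± 0.11 at 48 hours, the last being 1.68-fold (adjusted p = 3.34e-05). The 1-hour call was lost when control replicate 1, 2 or 4 or stretched replicate 1, 2 or 5 was left out. The step from 24 to 48 hours was 0.34 and was not called (adjusted p = 0.0731).

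Psmd14, the metalloprotease of the lid that cuts the ubiquitin chain from the substrate, had levels of 10.91, 10.88, 10.86, 10.93 and 10.91 without stretch in set I. They were 11.05, 11.09, 10.94, 11.06 and 11.18 after 1 hour, 11.13, 11.08, 11.14, 11.07 and 10.97 after 4 hours, and 11.17, 11.30, 11.24, 11.27 and 11.26 after 12 hours. All stretched arrays exceeded all controls, by a narrow margin at 1 and 4 hours. In set II the control had 10.95, 10.90, 10.95, 10.98 and 10.77, the 24-hour group 11.00, 11.26, 11.25, 11.25 and 11.31, and the 48-hour group 11.36, 11.41, 11.42, 11.47 and 11.44. Replicate 1 of 24 hours stood apart from the other 4 and near the controls. The change was 0.17 ± 0.05 at 1 hour, 0.18 at 4 hours, 0.35 at 12 hours, 0.30 ± 0.06 at 24 hours and 0.51 ± 0.06 at 48 hours (1.42-fold, adjusted p = 6.78e-06). By their brightest probe sets, Psmd5, Psmd8 and Psmd14 were the 3 genes called higher at all 5 times. A second probe set of Psmd14 (mean log2 level 10.11) was called at 1, 4, 12 and 48 hours and not at 24 hours (0.20, adjusted p = 0.253), and a dimmer one (7.37) at 48 hours alone (0.34, adjusted p = 0.0019).

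Psmd7, which pairs with Psmd14 in the lid, had levels of 10.67, 10.59, 10.57, 10.59 and 10.58 in the set I control, 10.68, 10.74, 10.65, 10.67 and 10.69 after 1 hour, 10.90, 10.90, 10.89, 10.84 and 10.87 after 4 hours, and 11.00, 11.02, 10.97, 11.00 and 11.01 after 12 hours. The 4 hours and 12-hour groups were clear of the control and of each other. Its set II levels were 10.81, 10.83, 10.71, 10.88 and 10.84 without stretch, 11.08, 11.15, 11.16, 11.23 and 11.14 after 24 hours and 11.17, 11.14, 11.25, 11.18 and 11.26 after 48 hours. Both stretched groups were above the control and overlapped with each other. The change was 0.09 at 1 hour (adjusted p = 0.0985), 0.28 at 4 hours, 0.40 ± 0.03 at 12 hours (adjusted p = 1.37e-08), 0.34 at 24 hours and 0.39 ± 0.05 at 48 hours. A second probe set of Psmd7 was called at 4, 12 and 48 hours and not at 24 hours (0.25, adjusted p = 0.067).

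Of the 8 lid genes, 2, 6, 7, 5 and 7 were called higher after 1, 4, 12, 24 and 48 hours. None was called lower at these times, and the class medians were 0.07, 0.16, 0.25, 0.21 and 0.31. These counts and those of the classes below stand beside 6.32%, 14.2%, 16.3%, 9.14% and 16.9% of all probe sets called higher. Whether the counts of a class differ from these shares was not tested. Psmd13, a structural lid subunit, rose by 0.14 at 4 hours, 0.19 at 24 hours and 0.34 ± 0.06 at 48 hours, and its change of 0.09 at 12 hours was not called. Psmd3, a scaffold subunit of the lid, rose by 0.19 at 4 hours, 0.27 at 12 hours and 0.21 at 48 hours. Psmd6 was called in set I alone: it rose by 0.13 at 4 hours and 0.23 ± 0.05 at 12 hours, and its changes of −0.06 at 24 hours and 0.01 at 48 hours were not called. Psmd11, a lid scaffold subunit, was called at 12 hours (0.21), 24 hours (0.23) and 48 hours (0.27), and its changes of 0.00 at 1 hour and 0.05 at 4 hours were not called. A second probe set of Psmd11 (mean log2 level 10.41) was called at 4 hours (0.48), 12 hours (0.74, 1.67-fold, adjusted p = 2.1e-06) and 24 hours (0.16), and its changes of −0.05 at 1 hour and 0.08 at 48 hours (adjusted p = 0.241) were not called.

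By their brightest probe sets, the ATPases of the base were all called higher at 12 and 48 hours. None was called at 1 hour, 5 of 6 were higher at 4 hours, all 6 at 12 hours, 4 at 24 hours and 6 at 48 hours, with medians of 0.07, 0.20, 0.31, 0.16 and 0.25. Psmc4 changed by 0.29 ± 0.04 at 4 hours, 0.36 ± 0.04 at 12 hours (1.28-fold, adjusted p = 2.41e-07), 0.23 ± 0.05 at 24 hours and 0.29 ± 0.05 at 48 hours. Psmc1 changed by 0.25 at 4 hours, 0.37 ± 0.04 at 12 hours, 0.18 at 24 hours and 0.24 at 48 hours. Psmc3 changed by 0.28 at 4 hours, 0.34 at 12 hours and 0.14 at both 24 and 48 hours, and Psmc5 by 0.15, 0.27, 0.24 and 0.27 at 4, 12, 24 and 48 hours. Psmc2 and Psmc6 missed the call at 24 hours (0.12 and 0.08), and Psmc6 also at 4 hours (0.03). The 48-hour call of Psmc6 was close to the threshold (0.27, adjusted p = 0.0492, limma). A second probe set of Psmc6 (mean log2 level 10.40) was called at no time, with 0.20 at 12 hours (adjusted p = 0.0711) and 0.23 at 48 hours (adjusted p = 0.213). A dimmer one (8.78) was called at 4 hours (0.27), 12 hours (0.33) and 48 hours (0.23). The calls of Psmc6 thus depend on the probe set.

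The non-ATPase subunits of the base did not move alike. Psmd2, which docks ubiquitin-bearing shuttle factors, rose by 0.15 at 4 hours, 0.30 ± 0.04 at 12 hours, 0.18 at 24 hours and 0.22 at 48 hours, and Psmd4, a ubiquitin receptor also known as Rpn10, rose by 0.24 at 4 hours and 0.31 ± 0.04 at 12 hours, with 0.10 and 0.13 at 24 and 48 hours, neither called. Psmd1, a large scaffold subunit of the base, had levels of 10.47, 10.50, 10.50, 10.48 and 10.40 in the set I control and of 10.36, 10.39, 10.46, 10.41 and 10.31 after 12 hours. These groups overlapped, and the change of −0.08 ± 0.04 was not called (adjusted p = 0.149). Between 1 and 12 hours Psmd1 was lower by −0.16 ± 0.04 (adjusted p = 0.0104). In set II it had 10.28, 10.31, 10.11, 10.48 and 10.35 without stretch, 10.43, 10.81, 10.62, 10.85 and 10.67 after 24 hours, and 10.68, 10.62, 10.73, 10.71 and 10.78 after 48 hours. The 48-hour arrays all exceeded the controls and 1 array of 24 hours did not, with changes of 0.37 ± 0.08 (adjusted p = 0.00372) and 0.40 ± 0.08 (adjusted p = 0.000979).

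**Figure D3:**
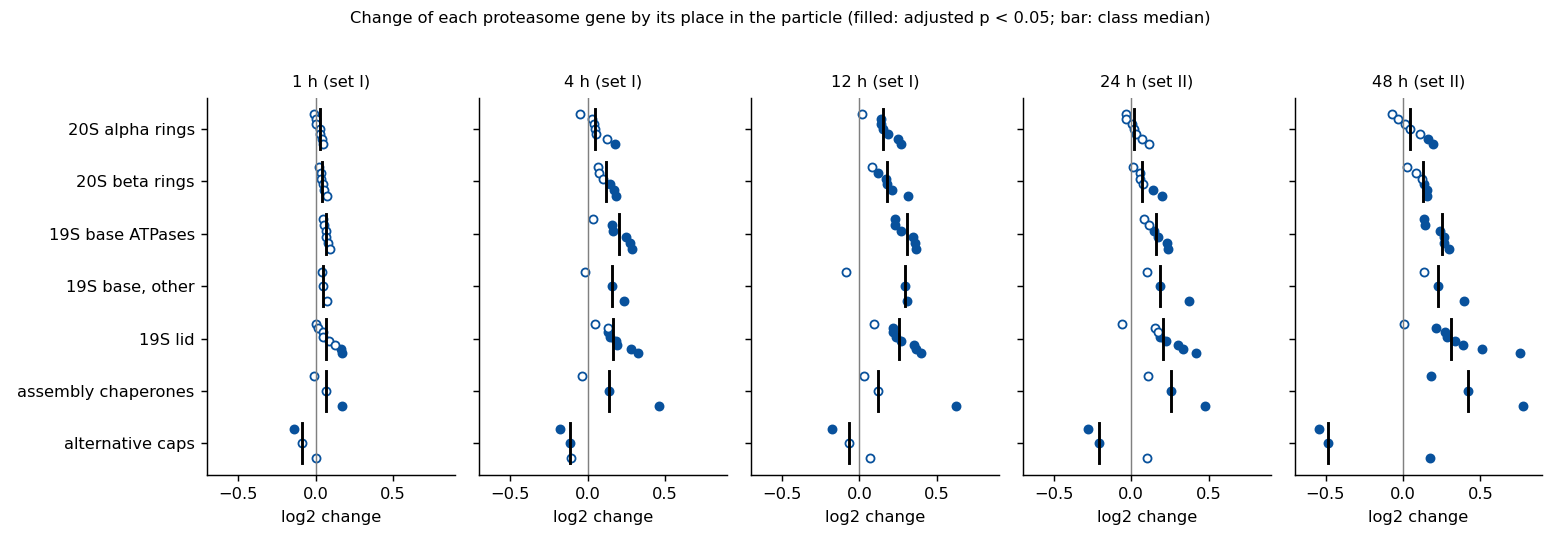
Log2 change of each proteasome gene (points) against the control of its set, in 1 panel per time, by class (rows). Filled points have an adjusted p under 0.05 and the black bar is the median of the class, which for the 19S ATPases reaches 0.31 at 12 hours and for the alternative caps −0.49 at 48 hours.

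The core was called higher mostly at 12 hours. Of the 7 alpha ring genes, none was called at 1 hour, 1 was higher at 4 hours (Psma3), 6 at 12 hours, none at 24 hours and 2 at 48 hours (Psma4 and Psma5), with medians of 0.03, 0.05, 0.16, 0.02 and 0.04. Psma3 rose by 0.17 ± 0.04 at 4 hours and 0.27 ± 0.04 at 12 hours (adjusted p = 5.37e-05), and had −0.03 at 24 hours and −0.07 at 48 hours, neither called. Psma5 rose by 0.25 ± 0.05 at 12 hours and 0.16 ± 0.06 at 48 hours. Of the 6 beta ring genes, 0, 3, 5, 2 and 3 were higher after 1, 4, 12, 24 and 48 hours, with medians of 0.04, 0.12, 0.18, 0.07 and 0.13. Psmb3, a structural beta subunit, had the largest of these changes at 4 hours (0.18), 12 hours (0.32 ± 0.04, adjusted p = 3.46e-06) and 24 hours (0.20). At 48 hours it rose by 0.15 and Psmb4 by 0.16.

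The catalytic Psmb5 had levels of 12.16, 12.20, 12.13, 12.06 and 12.15 in the set I control, 12.12, 12.16, 12.15, 12.15 and 12.21 after 1 hour, 12.14, 12.20, 12.18, 12.18 and 12.32 after 4 hours, and 12.23, 12.22, 12.27, 12.31 and 12.27 after 12 hours. Only the 12-hour arrays were clear of the control. In set II it had 12.04, 12.11, 12.07, 12.11 and 12.15, then 12.26, 12.28, 12.22, 12.26 and 12.18 after 24 hours and 12.31, 12.25, 12.23, 12.22 and 12.17 after 48 hours. The stretched arrays all exceeded the controls by a small margin. The changes were 0.12 ± 0.04 at 12 hours (adjusted p = 0.025), 0.14 ± 0.04 at 24 hours (adjusted p = 0.0319) and 0.14 ± 0.04 at 48 hours (adjusted p = 0.0234). These calls were close to the threshold: leaving out replicate 4 of the control or of 12 hours ended the 12-hour call, leaving out control replicate 1, 2 or 3 or stretched replicate 1, 2 or 4 ended the 24-hour call, and leaving out replicate 1 of the control or of 48 hours ended the 48-hour call.

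The catalytic Psmb7 had levels of 11.55, 11.53, 11.45, 11.41 and 11.49 in the set I control, 11.54, 11.52, 11.48, 11.46 and 11.61 after 1 hour, 11.51, 11.46, 11.63, 11.66 and 11.67 after 4 hours, and 11.67, 11.63, 11.61, 11.74 and 11.68 after 12 hours. It was above the control on all arrays at 12 hours alone (0.18 ± 0.05, adjusted p = 0.00556). Its set II levels were 11.59, 11.51, 11.54, 11.38 and 11.59 without stretch, 11.62, 11.54, 11.56, 11.41 and 11.56 after 24 hours and 11.73, 11.65, 11.68, 11.63 and 11.56 after 48 hours. These groups overlapped, and the changes of 0.01 and 0.13 were not called (adjusted p = 0.912 and 0.0928).

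The cap and the core were also averaged on each array, as the mean difference of their genes from the control mean of the set. For the 17 subunit genes of the 19S base and lid, the stretched arrays lay at 0.03 to 0.11 after 1 hour, 0.14 to 0.20 after 4 hours, 0.24 to 0.28 after 12 hours, 0.10 to 0.26 after 24 hours and 0.26 to 0.31 after 48 hours, with controls from −0.03 to 0.02. For the 13 genes of the 20S core they lay at −0.01 to 0.15, 0.05 to 0.15, 0.13 to 0.21, −0.03 to 0.12 and −0.01 to 0.15, with set I controls from −0.07 to 0.05 and set II controls from −0.04 to 0.03. The 19S mean was clear of the control at all times and the 20S mean at 12 hours alone. These means are given without a test, and the difference between cap and core was not tested.

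**Figure D4:**
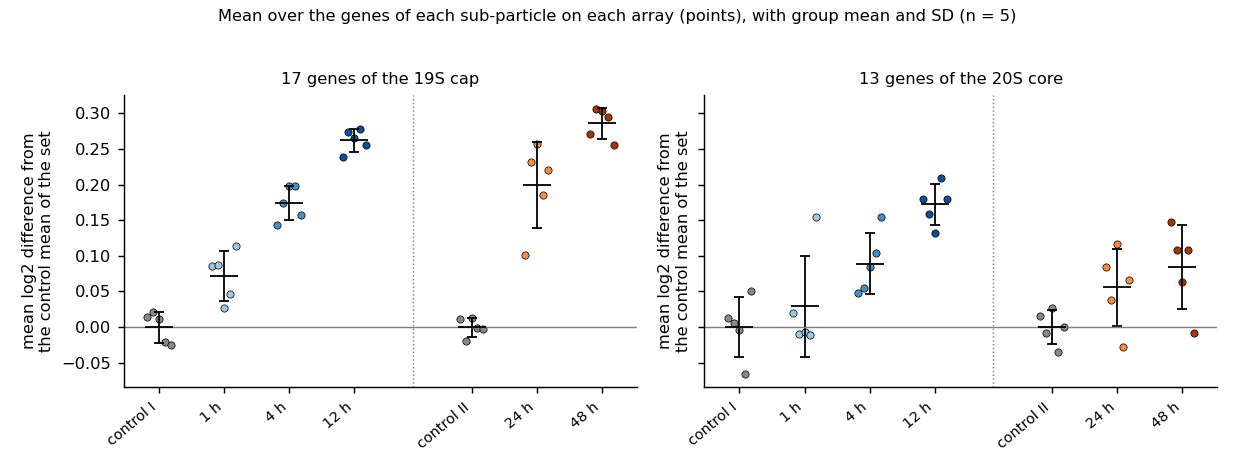
Mean log2 difference from the control mean of the set, over the 17 genes of the 19S base and lid (left) and the 13 genes of the 20S core (right), on each array (points), with the mean and SD of each group (n = 5). The 48-hour arrays lie at 0.26 to 0.31 for the cap and at −0.01 to 0.15 for the core.

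Some of the genes also varied together between replicates. Around the group means, a gene correlated with the mean of the other 35 by a median of 0.47 over the 20 arrays of set I and 0.40 over the 15 arrays of set II. The highest value was that of Psma5 in both sets (0.88 and 0.85), and the lowest were those of Psmd1 in set I (−0.30) and Psma4 in set II (−0.59). The value was over 0.5 for 16 of the 36 genes in set I and for 15 in set II, and it was below 0 in both sets for Psmd1, Psmd2 and Psmd3. The median of the remaining genes of the array was 0.04 and −0.11, and 9.44% and 11.9% of them lay above the median of the proteasome genes. All points share their arrays, so the values describe these arrays only.

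The PA28 genes went the other way, and the PA200 gene Psme4 was called in both directions. Psme1, the alpha subunit of PA28, had levels of 12.51, 12.46, 12.45, 12.43 and 12.52 in the set I control, 12.33, 12.32, 12.36, 12.31 and 12.35 after 1 hour, 12.30, 12.30, 12.27, 12.27 and 12.33 after 4 hours, and 12.34, 12.24, 12.30, 12.25 and 12.33 after 12 hours. Every stretched array was below every control. In set II it had 12.88, 12.90, 12.82, 12.85 and 12.80 without stretch, 12.71, 12.50, 12.62, 12.48 and 12.54 after 24 hours, and 12.39, 12.26, 12.30, 12.28 and 12.31 after 48 hours. The 3 groups of set II did not overlap. Its change was −0.14 ± 0.03 at 1 hour (adjusted p = 0.0096), −0.17 ± 0.03 at 4 hours, −0.18 ± 0.03 at 12 hours, −0.28 ± 0.05 at 24 hours and −0.54 ± 0.05 at 48 hours, or 0.69-fold of the control (adjusted p = 6.63e-07). From 24 to 48 hours it fell by 0.26 on the log2 scale (adjusted p = 0.00561). A dim second probe set of Psme1 (mean log2 level 5.74) was not called at any time, with changes from −0.06 to 0.11, and the mean of both probe sets was called at 48 hours alone.

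Psme2, the beta subunit of PA28, had levels of 10.78, 10.67, 10.66, 10.59 and 10.82 in the set I control, 10.56, 10.58, 10.62, 10.53 and 10.78 after 1 hour, 10.58, 10.47, 10.52, 10.62 and 10.78 after 4 hours, and 10.64, 10.54, 10.63, 10.68 and 10.69 after 12 hours. These groups overlapped, and the changes of −0.09, −0.11 and −0.07 were not called. In set II it had 10.82, 10.83, 10.88, 10.79 and 10.77 without stretch, 10.84, 10.55, 10.64, 10.48 and 10.51 after 24 hours, and 10.36, 10.41, 10.30, 10.30 and 10.28 after 48 hours. Replicate 1 of 24 hours was at the level of the controls, and all 48-hour arrays were below both other groups. The change was −0.21 ± 0.06 at 24 hours (adjusted p = 0.0265) and −0.49 ± 0.06 at 48 hours (0.71-fold, adjusted p = 1.36e-05). The 24-hour call ended without control replicate 1, 2 or 3 or stretched replicate 2, 4 or 5, and the further fall from 24 to 48 hours was called (−0.28, adjusted p = 0.0129).

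Psme4, the PA200 cap, had levels of 11.11, 11.13, 11.05, 11.03 and 11.03 in the set I control, 11.09, 11.15, 11.05, 11.04 and 11.02 after 1 hour, 10.99, 11.01, 10.92, 10.94 and 10.93 after 4 hours, and 11.17, 11.16, 11.16, 11.15 and 11.06 after 12 hours. The 4-hour arrays alone were clear of the control, below it. Its set II levels were 11.34, 11.28, 11.28, 11.30 and 11.35, then 11.47, 11.42, 11.49, 11.21 and 11.48 after 24 hours and 11.50, 11.48, 11.58, 11.53 and 11.35 after 48 hours. The change was −0.11 ± 0.04 at 4 hours (adjusted p = 0.0321) and 0.18 ± 0.06 at 48 hours (adjusted p = 0.0295). The other probe sets of Psme4 did not move alike: one was lower at 48 hours (−0.29, adjusted p = 0.000342) and another higher at 12 hours (0.35, adjusted p = 1.03e-05), so that the direction of Psme4 depends on the probe set. Without control replicate 1 or 2 or stretched replicate 3, 4 or 5 the 4-hour call ended, and without control replicate 2, 3 or 4 or stretched replicate 1, 3 or 4 the 48-hour call ended.

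The PA28 genes are induced by interferon, as are the catalytic subunits Psmb8, Psmb9 and Psmb10 that replace the standard ones in the immunoproteasome. In the RefSeq annotation (GRCr8) Psme1 and Psme2 are separated by a single gene on chromosome 15, and Psmb8 and Psmb9 flank the peptide transporter gene Tap1 on chromosome 20. Psmb9 changed by −0.26 at 12 hours, −0.55 at 24 hours and −0.95 at 48 hours (0.52-fold, adjusted p = 7.29e-08) and Psmb8 by −0.24, −0.47 and −0.83 (0.56-fold at 48 hours, adjusted p = 1.38e-07), all called. Psmb10 was called at 48 hours alone (−0.19, adjusted p = 0.0247). Of 15 interferon response genes, 2, 4, 2, 14 and 15 were called lower after 1, 4, 12, 24 and 48 hours. The medians were −0.08, −0.13, −0.10, −0.52 and −0.99, and 1 gene was higher, the transporter gene Tap2 at 12 hours. The shares of all probe sets called lower were 7.52%, 15.2%, 16.9%, 9.13% and 16.0%. The counts were not tested against these shares. Mx1, an antiviral GTPase, changed by −2.06 at 24 hours and −2.20 at 48 hours, Mx2 by −1.33 and −2.09, and Usp18, which removes the ubiquitin-like ISG15, by −1.20 and −2.14.

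**Figure D5:**
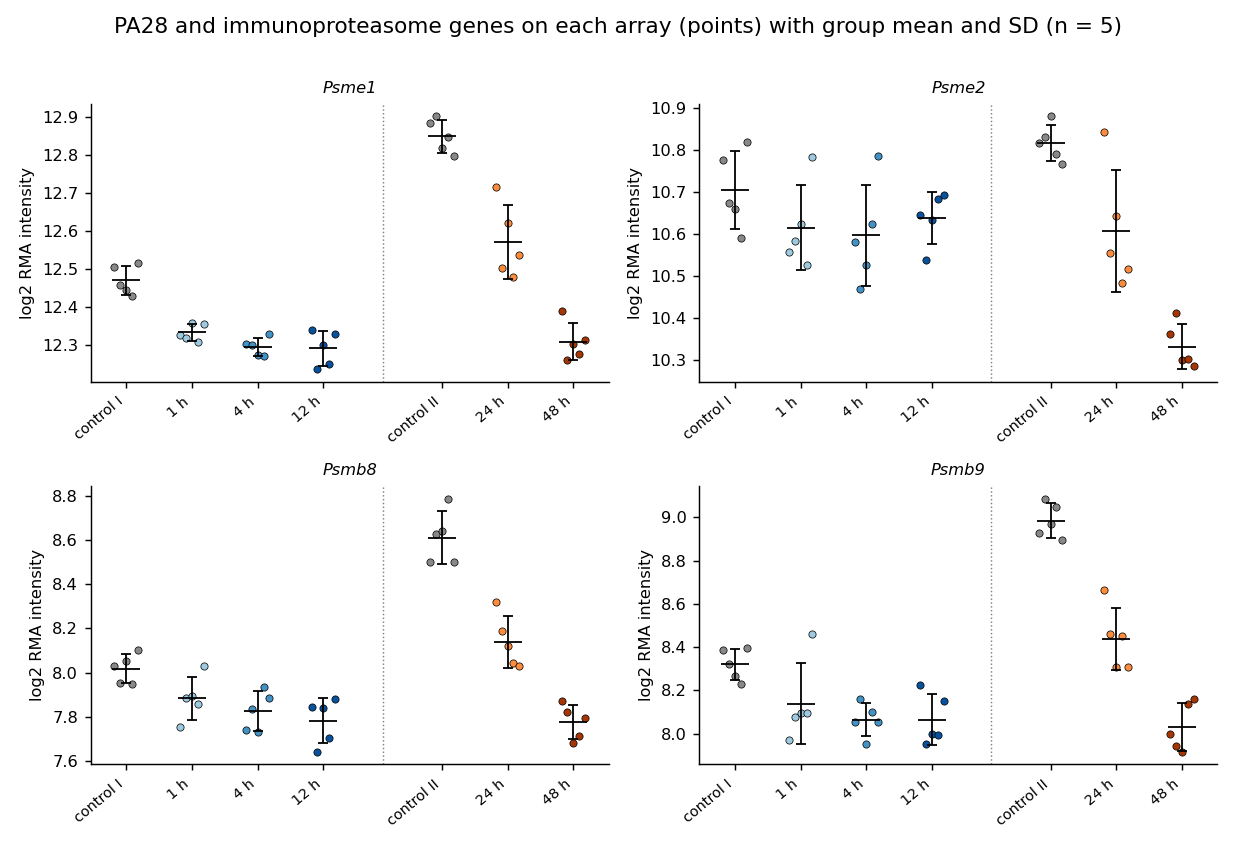
Log2 RMA intensity of the PA28 genes Psme1 and Psme2 and of the immunoproteasome genes Psmb8 and Psmb9 on each array (points), with the mean and SD of each group (n = 5) and a dotted line between set I and set II, and with a different vertical axis in each panel. After 48 hours all 4 genes lie below every set II control, and Psme1 is at 12.26 to 12.39 against 12.80 to 12.90.

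Some markers of other cells were called at the same times. Among all probe sets, 6.32%, 14.2%, 16.3%, 9.14% and 16.9% were called higher after 1, 4, 12, 24 and 48 hours. The shares called lower were 7.52%, 15.2%, 16.9%, 9.13% and 16.0%. Whether the counts of the marker lists differ from such shares was not tested. Of 12 macrophage markers, 0, 2, 3, 3 and 8 were called lower after 1, 4, 12, 24 and 48 hours and none higher, and their summed intensity was 5160 to 5433 in the set II control, 4366 to 4871 after 24 hours and 3066 to 3779 after 48 hours, against 1463 to 1774 in the set I control and 1289 to 1503 after 12 hours. Of 9 endothelial markers, 0, 6, 6, 4 and 8 were lower, with a sum of 3739 to 4971 in the set II control and 2680 to 2875 after 48 hours. Of 9 smooth muscle and pericyte markers, 4, 5, 2, 5 and 5 were higher and 0, 1, 1, 0 and 1 lower. Cnn1 (calponin) was higher by 2.89 at 48 hours. Which cells of the cultures gave these rises was not tested. Of the 14 cardiomyocyte markers, 3, 4, 6, 5 and 8 were lower and 2, 2, 2, 3 and 3 higher, and of the 12 fibroblast markers, 3, 7, 8, 2 and 6 were lower and 1, 1, 1, 3 and 2 higher. The part of these marker changes in the changes of the proteasome genes, of PA28 and of the immunoproteasome was not tested.

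Other parts of the proteasome and proteins bound to it were called higher at some times, in shares to be read against the 6.32%, 14.2%, 16.3%, 9.14% and 16.9% of all probe sets called higher at the successive times. Of 9 further 26S parts and core assembly factors, 0, 1, 5, 2 and 5 were higher and 0, 0, 0, 1 and 1 lower after 1, 4, 12, 24 and 48 hours, the lower ones being the inhibitor gene Psmf1 (−0.19 at 24 hours) and the core chaperone gene Psmg4 (−0.19 at 48 hours). The medians of the 9 genes were −0.03, 0.07, 0.13, 0.10 and 0.15, and at 12 hours Psmg1, Psmg4 and Sem1 had changes below 0 that were not called. Adrm1, a ubiquitin receptor of the cap, changed by 0.27, 0.42, 0.28 and 0.33 at 4, 12, 24 and 48 hours, all called (at 12 hours 1.34-fold, adjusted p = 1.28e-06). Psmg2, a chaperone of the alpha ring, rose by 0.14, 0.21 and 0.34 at 12, 24 and 48 hours, and Ecpas, which binds cap and core together, by 0.14 at 12 hours and 0.20 at 48 hours. Of 10 proteasome-bound deubiquitinases, ligases and shuttle factors, 2, 7, 8, 3 and 5 were higher and 1 was lower, Ubqln2 at 1 hour (−0.13). The shuttle factor Ubqln1 rose at all 5 times, by 0.33 at 12 hours and 0.43 at 48 hours, the deubiquitinase Usp14 by 0.35 and 0.39, and Uchl5, which is held by Adrm1, by 0.43 at 48 hours.

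The regulators that can act on these genes were measured beside them. Of 12 such genes, 4, 7, 6, 4 and 5 were higher and 2, 2, 2, 1 and 1 lower. Among all probe sets, 6.32%, 14.2%, 16.3%, 9.14% and 16.9% were called higher at the successive times. The shares called lower were 7.52%, 15.2%, 16.9%, 9.13% and 16.0%. Whether the counts of these genes and of the Nrf2 targets below differ from such shares was not tested. The small Maf genes had the largest rises: Maff by 1.22 at 12 hours (2.34-fold, adjusted p = 3.83e-09), Mafk by 0.98 at 48 hours and Mafg by 0.53 at 12 hours. Nfe2l1 itself changed by 0.20 at 4 hours and 0.29 at 12 hours, both called. Its changes at 1, 24 and 48 hours are not given here. The lower genes were Nfyb and Nfyc, subunits of the CCAAT-binding NF-Y, and Ngly1, the enzyme that processes Nfe2l1, with called changes from −0.13 to −0.24. Of 11 Nrf2 target genes, 7, 10, 11, 10 and 10 were higher after 1, 4, 12, 24 and 48 hours, with medians of 0.25, 0.63, 1.31, 0.68 and 0.66, led by the cystine transporter Slc7a11 (2.78 at 12 hours), the heme-degrading Hmox1 (2.50) and the sulfiredoxin Srxn1 (1.92). Whether these factors act on the proteasome genes here was not tested.

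Most genes of the p97 segregase and of the heat shock chaperones were called higher at 12 and 48 hours. Fewer ubiquitin ligases and autophagy genes were called, in both directions. Of all probe sets, 6.32%, 14.2%, 16.3%, 9.14% and 16.9% were called higher at the successive times. The shares called lower were 7.52%, 15.2%, 16.9%, 9.13% and 16.0%. Whether the counts of these lists differ from such shares was not tested. Of 9 genes of the p97 segregase, which extracts ubiquitin-tagged proteins for the proteasome, 0, 4, 8, 4 and 6 were higher and none lower after 1, 4, 12, 24 and 48 hours, with Plaa at 0.43, Ufd1 at 0.35 and Nsfl1c at 0.35 at 12 hours. Of 11 cytosolic chaperones of the heat shock response, 5, 8, 8, 6 and 6 were higher, and at 48 hours Hspa1a rose by 0.97, Hsph1 by 0.79 and Hspb1 by 0.41. Of 6 ubiquitin-activating and ubiquitin-conjugating enzymes measured, 0, 2, 3, 0 and 2 were higher and 1 lower, Ube2d1 (−0.43 at 48 hours), while Ube2n rose by 0.41 at 48 hours and Ube2d2 by 0.22 at 12 hours. Of 12 ubiquitin ligases of heart muscle, 1, 2, 3, 2 and 1 were higher and 1, 2, 3, 1 and 4 lower, with Mdm2, the ligase of p53, up by 0.80 and Fbxl22 at −0.77 at 48 hours, and Trim54 up by 0.44 at 12 hours. Of 12 autophagy genes, 0, 3, 4, 2 and 5 were higher and 0, 2, 1, 1 and 2 lower, and the receptor Sqstm1 rose by 0.91 at 12 hours (1.88-fold, adjusted p = 3.09e-10), Gabarapl1 by 0.47 at 12 hours, while Ulk1 was at −0.54 at 48 hours. Of the 9 genes of the COP9 signalosome, a complex built like the lid, 0, 2, 3, 2 and 4 were higher and 0, 1, 1, 0 and 0 lower (Cops4, −0.10 and −0.11 at 4 and 12 hours), with Cops7a at 0.35 and Cops5 at 0.22 at 48 hours and Cops3 at 0.18 at 24 hours.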

How the data were processed

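Total RNA of 35 NRVM cultures was measured on Affymetrix rat expression arrays. The authors normalized the arrays by RMA and deposited linear intensities for 31099 probe sets. A spreadsheet had turned 471 of the 1088465 values into dates before deposit. They were restored from the month and year of the date or, for 5 values, from its day and month. The restored value fell between the lowest and highest values of that set's remaining arrays in 413 cases, and none of the 471 belonged to a proteasome gene. Here 57 array controls were left out, log2 values were taken, and each set was fitted apart with 1 mean per group (limma 3.58.1 in R 4.3.3, moderated variances, Benjamini-Hochberg over 31042 probe sets, two-sided). Precision is limited by the number of arrays. With 16 residual degrees of freedom in set I and 12 in the other set, the residual SD had medians of 0.11 and 0.12. Gene symbols came from the platform annotation (20826 probe sets with 1 symbol, 436 with several and 9780 with none). The test was also run on simulated data, which does not establish its error rates on these arrays.

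The members and lists were chosen with earlier results of these data known. The 8 largest called rises and falls per time were named, all arrays are given for the 2 largest changes per time, the catalytic subunits and the alternative caps (Psmd1 was added after its values were seen), and up to 3 called genes of each other list, with Nfe2l1 and other genes also added after their values were seen. The replicates are called biological in the design text, and whether they came from separate animals is not stated there. Same-numbered replicates did not deviate together (correlations −0.30 to 0.34 in the first set, −0.39 to 0.54 in the second), so they were not paired. The paper states that, inside a culture, the groups began stretch at staggered times and ended together. Groups of a set may therefore share cultures. A pairing by culture that the replicate numbers do not show was not tested. There were 12 alternatives, and each of the 35 arrays was left out in turn. Promoter letters came from RefSeq (GRCr8).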

Additional observations from a re-analysis of the deposited data

Results flagged for a closer look

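Among the 63 groups of 5 arrays examined for the 9 proteasome genes with values on every array, 4 held an array far from the other 4, where chance marks about 5% of groups. These were the lowest 24-hour array of Psmd14 (replicate 1, 11.0), the highest set I control of Psmd7 (replicate 1, 10.67), the lowest 12-hour array of Psme4 (replicate 5, 11.06) and the lowest 24-hour array of Psme4 (replicate 4, 11.21).

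For the same 9 genes, 12 hours was compared with 1 hour and 48 hours with 24 hours, and the response to stretch differed in 8 cases, by the direct comparison of the stretched groups. Other called differences between times are in the report. The response at 12 hours exceeded that at 1 hour by 0.4563 for Psmd5, 0.3122 for Psmd7, 0.2001 for Psmd8, 0.1849 for Psmd14 and 0.1455 for Psmb7 on the log2 scale. The response at 48 hours exceeded that at 24 hours by 0.2998 for Psmd5, and the same difference was −0.2613 for Psme1 and −0.2758 for Psme2.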

How the results depend on the processing

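The counts of proteasome genes called higher at 4, 12, 24 and 48 hours stayed within 1.5 times of the values reported under all alternatives except a limit on size. At 1 hour, 5 genes in place of 3 were higher with arrays centred on their medians, with the one-way analysis of the methods, with a variance trend, with array weights and without dim probe sets. Under a fold change of at least 1.2 the counts higher were 0, 5, 13, 5 and 12 and the counts lower 0, 0, 0, 1 and 2, in the order of the times. The few genes called lower were 0, 1 and 1 at 1, 4 and 24 hours with centring, 0, 0, 0 and 1 at 1, 4, 12 and 24 hours with the mean of the probe sets of a gene, and 1 at both 4 and 24 hours when the arrays of the 2 groups were fitted alone. With the mean of its probe sets Psme4 at 48 hours turned from 0.18 to −0.016, since its probe sets differ in direction. For the other settings the cause was not tested.

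Leaving out 1 array at a time gave 1 to 4 genes higher at 1 hour (1 without replicate 5 of that time), 15 to 20 at 4 hours, 24 to 27 at 12 hours, 11 to 16 at 24 hours and 18 to 23 at 48 hours. The genes called lower were 1 at 1 hour, 1 to 2 at 4 hours, 1 at 12 hours, 1 to 2 at 24 hours and 2 at 48 hours. At 4 hours the lower count was 1 without control replicate 1 or 2 or stretched replicate 3 or 4, and at 24 hours without control replicate 1, 2 or 3 or stretched replicate 2, 4 or 5. The median change of the 36 genes stayed above 0 throughout, between 0.02 and 0.08 at 1 hour, 0.11 and 0.16 at 4 hours, 0.18 and 0.25 at 12 hours, 0.11 and 0.15 at 24 hours and 0.15 and 0.22 at 48 hours. With the replicate number as a block, 3, 18, 27, 12 and 22 genes were higher and 1, 2, 1, 2 and 2 lower, and 5 of 30 and 2 of 15 comparisons had an array correlate best with its own number. For the 96 called changes of all 36 genes under 12 settings, 1054 of 1152 values were called, 97 were not and 1 was reversed, and with 1 array left out 845 of 960 were called and 115 were not. The second probe sets of Psme1 and Psmc4 lie near the background (mean log2 levels of 5.74 and 5.15), where small changes are hard to measure.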
